A study of Mus musculus with 45 samples.

Results

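The 10 genes Pkd1, Pkd2, Pkhd1, Ganab, Prkcsh, Sec63, Dnajb11, Alg8, Alg9 and Bicc1 were read across the kidney tubule translatome of mice. Mutations in their human counterparts, or in mice for Bicc1, are tied to polycystic kidney disease, polycystic liver disease or both. The genes were chosen by name from what is known of the diseases, by a rule that used no measured value, out of 55401 genes counted. Earlier results of these data were known when they were chosen. All 10 passed the filter on low counts in both sexes. The count tables held 45 mice of 7 weeks (postnatal day 49), all carrying RosaEGFP-Rpl10a, Pax8rtTA and TetOCre, each in a single copy, and all given oral doxycycline from day 28 to day 42. The noncystic group (8 males, 7 females) had the genotype Pkd1fl/+, the Pkd1KO group (7 males, 8 females) Pkd1fl/fl, and the Pkd1KO+ciliaKO group (9 males, 6 females) Pkd1fl/fl with Kif3afl/fl. In translating ribosome affinity purification (TRAP) a green fluorescent tag on the ribosomal protein L10a is switched on by Cre, so ribosomes, and the mRNA on them, are drawn only from cells in which Cre was active. Pax8rtTA directs Cre to the tubule, the noncystic mice also lost 1 copy of Pkd1 in these cells, and the kidneys were taken before cysts had formed. The design asked which transcripts change when Pkd1 is lost and cilia are present, since removing cilia together with polycystin-1 protects from cysts.

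The genes fall into 3 roles. Polycystin-1 (Pkd1) is a very large receptor-like membrane protein and polycystin-2 (Pkd2) is its channel partner, and both reach the primary cilium. Fibrocystin (Pkhd1) is a large single-span membrane protein of cilia and tubule cells, and its loss causes the recessive disease. Another 6 of the genes serve the endoplasmic reticulum (ER), where polycystin-1 is made and folded. Alg8 and Alg9 are transferases that build the sugar tree later attached to new proteins, Ganab and Prkcsh are the catalytic and the non-catalytic subunit of glucosidase II, which trims that tree, Sec63 helps chains through the translocon, and Dnajb11 is a co-chaperone of BiP. Bicc1 is an RNA-binding protein that acts on Pkd2 mRNA, and its loss gives cystic kidneys in mice.

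The conditional allele of Pkd1 removes exons 2 to 4. In the transcript with 46 exons these hold 314 of 14164 bases (2.22%), and 1.80% of the 17415 exon bases that were counted for the gene, so the gene count says little of the deletion. The deleted exons are shown because they are what Cre removes, in lower case and 5′ to 3′ on the plus strand of GRCm38.
Pkd1 exon 2, chr17:24564150-24564221: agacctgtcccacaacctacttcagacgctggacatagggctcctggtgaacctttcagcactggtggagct
Pkd1 exon 3, chr17:24564336-24564407: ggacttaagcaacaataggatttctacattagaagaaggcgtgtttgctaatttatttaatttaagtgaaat
Pkd1 exon 4, chr17:24564579-24564748: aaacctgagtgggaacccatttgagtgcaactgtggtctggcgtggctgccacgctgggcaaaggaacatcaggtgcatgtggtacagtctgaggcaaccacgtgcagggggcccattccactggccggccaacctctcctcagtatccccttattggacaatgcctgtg
The number of deleted bases is not a multiple of 3. When exon 1 was joined to exon 5 in the annotated sequence, the reading frame met a stop codon 1 base past the junction, after 72 codons in place of 4293. The last 30 bases of exon 1 and the first 30 of exon 5 are printed next, with that stop in capitals.
Pkd1 junction of exon 1 with exon 5: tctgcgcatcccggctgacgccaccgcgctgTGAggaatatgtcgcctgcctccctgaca

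Promoters, here the 250 bases before and 50 after a gene's start in RefSeq (GRCm38.p6), were found for 9 of the 10 genes, and Bicc1 had no entry. Those of Pkd2 and Dnajb11 are shown because these were the genes called in comparisons of Pkd1KO mice. Capitals mark CCAAT (or ATTGG on the other strand) and GGGCGG (or CCGCCC).
Pkd2 promoter, chr5:104459207-104459506, plus strand: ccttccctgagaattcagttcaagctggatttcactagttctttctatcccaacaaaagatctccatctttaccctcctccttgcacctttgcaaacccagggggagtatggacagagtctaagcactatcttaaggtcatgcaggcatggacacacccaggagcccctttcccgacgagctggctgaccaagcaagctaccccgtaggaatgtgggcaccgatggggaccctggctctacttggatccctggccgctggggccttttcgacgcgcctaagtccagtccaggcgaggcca
Dnajb11 promoter, chr16:22857595-22857894, plus strand: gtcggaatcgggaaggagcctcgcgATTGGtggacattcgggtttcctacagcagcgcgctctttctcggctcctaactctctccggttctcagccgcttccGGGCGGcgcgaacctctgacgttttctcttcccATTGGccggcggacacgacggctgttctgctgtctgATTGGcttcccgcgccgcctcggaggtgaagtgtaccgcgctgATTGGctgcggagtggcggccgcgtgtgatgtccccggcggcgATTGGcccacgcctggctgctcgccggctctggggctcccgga
The Dnajb11 window held 5 copies of the CCAAT box, all on the minus strand, and 1 GGGCGG. Of 32851 promoters of this length, 37.4% held at least 1 CCAAT box on either strand and 0.271% at least 5. GGGCGG stood in 35.7% of promoters. The Pkd2 window held neither. The full ER stress response element (0.119% of promoters), which begins with a CCAAT box and so can overlap those matches, and TGGGGGGT, the core letters bound by GLIS proteins (1.53%), were searched on both strands and matched none of the 9 windows.

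On GRCm38, Pkd1 (ENSMUSG00000032855.6) was counted at chr17:24549834-24596508 on the plus strand, Pkd2 (ENSMUSG00000034462.9) at chr5:104459450-104505819 on the plus strand and Pkhd1 (ENSMUSG00000043760.16) at chr1:20057779-20618064 on the minus strand. Of the ER genes, Ganab (ENSMUSG00000071650.6) lies at chr19:8898071-8916672, Prkcsh (ENSMUSG00000003402.14) at chr9:22002806-22014222, Sec63 (ENSMUSG00000019802.13) at chr10:42761496-42832514, Dnajb11 (ENSMUSG00000004460.17) at chr16:22857845-22879634, Alg8 (ENSMUSG00000035704.17) at chr7:97371606-97392185 and Alg9 (ENSMUSG00000032059.13) at chr9:50775019-50843542, all on the plus strand. Bicc1 (ENSMUSG00000014329.14) lies at chr10:70922832-71159700 on the minus strand.

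Libraries held 80874556 to 132958186 counted fragments (median 103070359), and counts were normalised to CPM, the share of a library's counted fragments scaled to a common total, with TMM factors over all 45 mice. Alg8, the gene of the 10 with the lowest level, had 2.13 CPM or more in every mouse. Kif3a, the second targeted gene, had 4.90 to 7.45 CPM in Pkd1KO+ciliaKO males, 13.8 to 25.5 in noncystic males and 21.6 to 29.2 in Pkd1KO males. In females the libraries labelled noncystic replicate 5 (6.69 CPM) and Pkd1KO+ciliaKO replicate 6 (20.7 CPM) went against their labels, and the other female mice had 23.2 to 28.3 CPM in groups that keep the gene and 6.56 to 8.47 in the double knockout. On the first principal component of log2(TPM + 1), which held 42.3% of the variance, 20 males scored 14.4 to 40.3, the females -38.4 to -12.9, and 4 males -30.2 to -1.13. Those 4 were noncystic male replicate 3, Pkd1KO male replicate 4 and Pkd1KO+ciliaKO male replicates 6 and 8. Summed CPM of 8 proximal tubule markers was 4832 to 11714 per mouse and of 4 thick ascending limb markers 1991 to 5179, and lists for podocytes (36.8 to 161), endothelium (39.0 to 273), fibroblasts (143 to 853), macrophages (35.8 to 244) and mast cells (16.9 to 42.4) were also detected.

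Levels were compared between genes in TPM, which divides counts by exon length before scaling. In the 15 noncystic mice the median was highest for Bicc1 at 173 TPM (117 to 226). Ganab followed at 95.8 TPM (77.5 to 118), Dnajb11 at 88.0 (59.99 to 109), Pkd2 at 81.7 (68.7 to 96.8) and Pkhd1 at 68.1 (49.5 to 100.2). The ranges of these 4 genes overlapped, and Dnajb11 exceeded Pkd2 in 8 of 15 mice, so the order of Dnajb11 and Pkd2 is not resolved over both sexes. It differed by sex. Dnajb11 exceeded Pkd2 in 7 of 8 noncystic males (medians 101 and 76.2 TPM), and in noncystic females the medians were 78.5 and 94.1. Ganab exceeded Dnajb11 in 13 of 15 mice, and Pkd2 exceeded Pkhd1 in 12 of 15. Prkcsh had 50.7 TPM (42.7 to 59.99), Sec63 30.5 (25.4 to 32.97), Alg9 13.6 (11.2 to 15.5), Pkd1 9.36 (6.03 to 17.1) and Alg8 3.49 (2.47 to 4.40). Prkcsh, Sec63 and Alg9 did not overlap one another, and Pkd1 exceeded Alg8 in all 15 mice. Alg9 exceeded Pkd1 in 13 of 15. By the median over all 45 mice, Bicc1 lay above 95% of all genes tested, Pkd2 above 90.2%, Pkd1 above 44.6% and Alg8 above 33.5%.
Per exon length the receptor transcript was thus far below that of its channel partner in the noncystic mice, whose Cre-active cells had also lost a copy of Pkd1. The ratio of Pkd2 to Pkd1 in TPM was 5.47 to 13.3 in noncystic males (median 8.64) and 7.03 to 10.7 in noncystic females (median 8.77). The 2 glucosidase II subunits were nearer to each other, Ganab exceeding Prkcsh by a ratio of 1.55 to 2.78 in every one of the 45 mice.

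**Figure D1:**
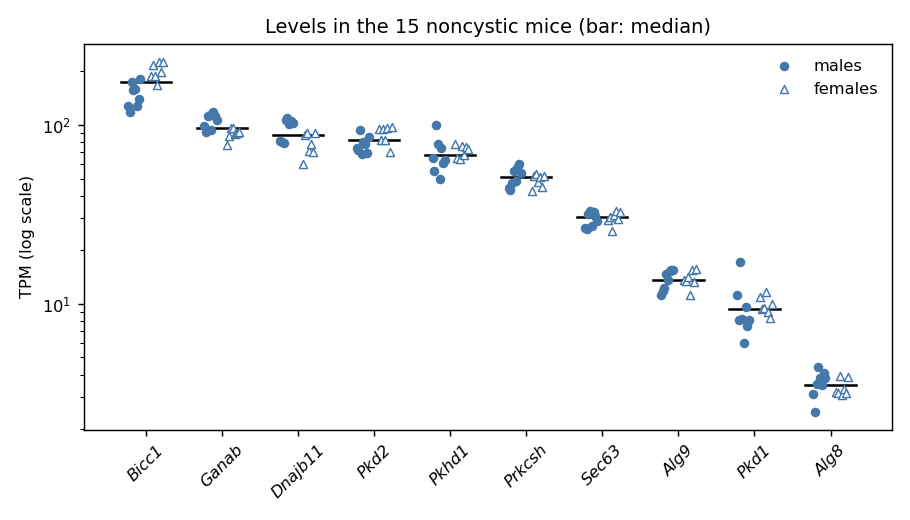
TPM (log axis) of the 10 genes in the 8 noncystic males (filled circles) and 7 noncystic females (open triangles), ordered by the median over both sexes (bar). Bicc1 stands highest with a median of 173 TPM and Alg8 lowest with 3.49, and Pkd1 lies at 9.36, below its partner Pkd2 at 81.7.

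Pkd2 was the single gene of the 10 called higher in Pkd1KO mice against both other genotypes and in both sexes. The log2 fold change of Dnajb11 was positive in each of these comparisons too, but passed the threshold only against Pkd1KO+ciliaKO females (below). In males Pkd2 had 233 to 291 CPM in noncystic mice (median 268), 336 to 495 in Pkd1KO mice (median 449) and 263 to 343 in Pkd1KO+ciliaKO mice (median 281). All 7 Pkd1KO males were above every noncystic male, and 6 of 7 were above every Pkd1KO+ciliaKO male. The exception was Pkd1KO male replicate 4, one of the 4 males that stood apart. In TPM the 7 Pkd1KO males (113 to 137) were above all 9 double knockouts (79.2 to 111).
In females Pkd2 had 224 to 308 CPM in noncystic mice (median 283), 420 to 556 in Pkd1KO mice (median 468) and 265 to 347 in Pkd1KO+ciliaKO mice (median 315). Pkd1KO females did not overlap either other group. Among all genes tested, the 2 groups did not overlap for 2.11% in Pkd1KO against noncystic males, 1.06% in the same comparison in females, 1.11% in Pkd1KO against Pkd1KO+ciliaKO males and 2.99% in females, with 1 of the 10 genes, Pkd2, in all of these but the third. Between Pkd1KO+ciliaKO and noncystic mice 1.06% of genes did not overlap in males and 1.73% in females, and 0 of the 10.

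**Figure D2:**
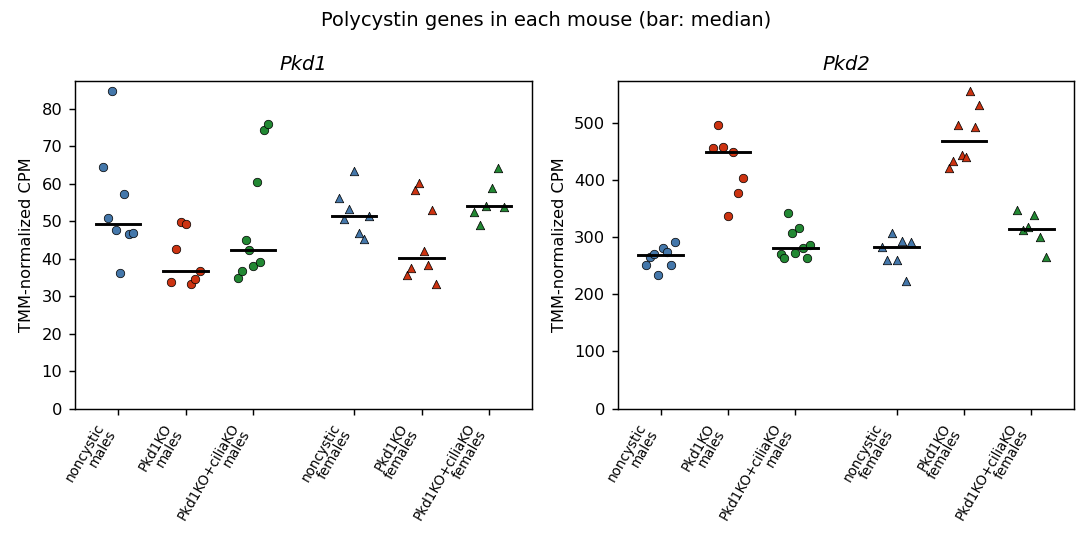
TMM-normalised CPM (vertical axes, from 0) of Pkd1 and Pkd2 in every mouse, by genotype and sex (circles males, triangles females, bar median, points spread sideways for legibility). Pkd2 is higher in Pkd1KO mice of both sexes, whose medians are 449 (males) and 468 (females), above 268 and 283 for the noncystic groups, and Pkd1 overlaps between all groups.

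Against noncystic mice the log2 fold change of Pkd2 was 0.68 ± 0.080 (SE) in males, a 1.602-fold difference, with an adjusted p of 0.000192 by edgeR's quasi-likelihood test. In females it was 0.80 ± 0.078, or 1.74-fold, with an adjusted p of 1.84e-05. Against Pkd1KO+ciliaKO mice it was 0.55 ± 0.082 in males (1.47-fold, adjusted p = 0.000820) and 0.61 ± 0.078 in females (1.52-fold, adjusted p = 0.000437). Both comparisons use the same Pkd1KO mice, so they are not independent. Without the 4 males that stood apart the male values were 0.74 and 0.60, and without both female libraries at odds with their labels the female values were 0.82 and 0.56.
The double knockout itself lay a little above noncystic mice, by 0.13 ± 0.066 in males (adjusted p = 0.244) and 0.19 ± 0.079 in females (adjusted p = 0.182), and neither passed the threshold. By edgeR without both female libraries at odds with their labels, 1 in each group, the female value was 0.25 ± 0.082 (adjusted p = 0.0887). Without the 4 males that stood apart the male value was 0.12 (adjusted p = 0.245). With limma on log2(TPM + 1) the female difference was 0.32 and passed the threshold (adjusted p = 0.0431, range over alternatives 0.0426 to 0.303). The effect of genotype on Pkd2 was not shown to differ between males and females. The interaction (male minus female) was -0.11 ± 0.11 against noncystic mice (adjusted p = 0.870), -0.051 ± 0.11 against the double knockout (adjusted p = 0.933) and -0.064 ± 0.11 for the double knockout against noncystic mice (adjusted p = 1.00).

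In bulk samples such as these, fewer cells of a type and less RNA per cell cannot be told apart. Beside the rise of Pkd2 in Pkd1KO against noncystic males, macrophage markers summed to 92.5 to 244 CPM against 67.2 to 94.4, with 1 of 5 called and all 5 at an unadjusted p under 0.05 (median log2 fold change 1.63). Tubule injury markers summed to 23.9 to 161 CPM against 14.2 to 69.7, with 2 of 5 called and 4 at an unadjusted p under 0.05. Among podocyte markers (61.8 to 161 against 36.8 to 103 CPM) 1 of 4 was higher, and among mast cell markers (17.1 to 27.1 against 16.9 to 24.2) 1 of 3 tested. Of 4 thick ascending limb markers 1 was lower there (1991 to 3378 against 2307 to 4500 CPM), and of 8 proximal tubule markers 1 (4832 to 10568 against 7267 to 11714), with 3 and 4 at an unadjusted p under 0.05. In the same comparison of females 1 of 4 mast cell markers was higher (27.9 to 42.4 against 23.4 to 29.5 CPM) and 1 of 4 thick ascending limb and 1 of 8 proximal tubule markers were lower. Of 5 macrophage markers (58.7 to 113 against 54.7 to 80.4 CPM) and 5 tubule injury markers (34.2 to 96.3 against 27.8 to 116) edgeR called 0 each in females, with 1 each at an unadjusted p under 0.05, and of the 4 podocyte, 4 endothelial and 4 fibroblast markers 0 under either threshold.
Against the double knockout, macrophage markers summed to 92.5 to 244 CPM in Pkd1KO males against 47.4 to 93.2, and to 58.7 to 113 in Pkd1KO females against 35.8 to 66.6, with 1 of 5 called in each sex. In males 2 of 4 thick ascending limb markers (1991 to 3378 against 2328 to 4268 CPM), 2 of 5 intercalated cell markers (171 to 264 against 214 to 345) and 1 of 3 distal convoluted tubule markers (230.0 to 531 against 278 to 532) were lower, and 1 of 8 proximal tubule markers (4832 to 10568 against 5965 to 9316) was higher. In females 1 of 4 thick ascending limb (2819 to 4513 against 3617 to 5179 CPM), 1 of 5 intercalated cell (249.9 to 379.8 against 331 to 473) and 1 of 3 distal convoluted tubule markers (382 to 600.3 against 389.9 to 589.6) were lower. At an unadjusted p under 0.05 these 3 lists held 3, 4 and 1 markers in females and 4, 4 and 1 in males. Of 4 endothelial markers edgeR called 0 in either sex. In females 3 of these had an unadjusted p under 0.05 (median log2 fold change -0.55), and in males 0 (median 0.38). Among mast cell (27.9 to 42.4 against 26.9 to 38.4), tubule injury (34.2 to 96.3 against 42.7 to 100.2) and proximal tubule markers (6494 to 10151 against 6115 to 8408) 1 each was higher in those females. No marker was at 0 in every mouse of a group, and the part of other cells in any of these comparisons was not tested.

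A "CDCA pattern" gene, after cilia-dependent cyst activation, was one called in Pkd1KO mice against noncystic and against double knockout mice, each time in the same direction. Of the 10 genes 1, Pkd2, had it in males and the same 1 in females. Among all genes tested 1.09% had the pattern in males, 1.91% in females and 0.493% in both sexes. Of 16130 other genes, those whose log2 CPM, centred on each sex, was most like that of Pkd2 over the 45 mice were Glis2 (r = 0.93), a transcription factor of the nephronophthisis genes, Gnptab (r = 0.92), a subunit of the enzyme that tags lysosomal proteins with mannose phosphate, and Cables2 (r = 0.91). With group means removed, r was 0.62 for Glis2, 0.71 for Gnptab and 0.42 for Cables2. The mice share libraries and genotypes, and r is given as a description.

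Pkd1 read counts were lower in Pkd1KO mice without passing the threshold. Noncystic males had 36.3 to 84.9 CPM (median 49.3), Pkd1KO males 33.2 to 49.8 (median 36.6) and Pkd1KO+ciliaKO males 34.8 to 75.9 (median 42.3). Noncystic females had 45.2 to 63.5 (median 51.5), Pkd1KO females 33.4 to 60.3 (median 40.1) and Pkd1KO+ciliaKO females 49.01 to 64.2 (median 54.0). The groups overlapped in every comparison, and the highest noncystic male (replicate 3) and 2 of the highest double knockout males (replicates 6 and 8) were among those that stood apart.
Against noncystic mice the log2 fold change of Pkd1 in Pkd1KO mice was -0.45 ± 0.15 in males (adjusted p = 0.0991) and -0.22 ± 0.13 in females (adjusted p = 0.418). Limma voom with sample quality weights gave -0.52 in males, past the threshold (adjusted p = 0.00625, range over alternatives 0.00625 to 0.248). Against the double knockout it was -0.31 ± 0.18 in males (adjusted p = 0.343) and -0.31 ± 0.13 in females (adjusted p = 0.144). The double knockout differed from noncystic mice by -0.13 ± 0.18 in males and 0.077 ± 0.080 in females (adjusted p = 0.700 and 0.614).
The TPM ratio of Pkd2 to Pkd1 reached a median of 18.9 in Pkd1KO males (11.7 to 23.2) and 18.9 in Pkd1KO females (12.6 to 27.2). It was 6.06 to 13.3 (median 12.3) in double knockout males and 7.99 to 11.4 (median 9.95) in double knockout females. Female Pkd1KO mice lay above both other female groups, and male ranges overlapped. Each ratio rests on the Pkd1 count, which shares 693 exon bases (3.98%) with Tsc2, a tuberous sclerosis gene on the opposite strand, and whether counting used strand is not given in the sources used here. Tsc2 itself fell in Pkd1KO against noncystic males (-0.32 ± 0.080, adjusted p = 0.0224), a call lost without the 4 males that stood apart.

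Dnajb11 rose in Pkd1KO females against Pkd1KO+ciliaKO females, the only other gene of the 10 called in a comparison of Pkd1KO mice. Pkd1KO females had 90.6 to 106 CPM (median 93.3), double knockout females 63.9 to 90.8 (median 71.0) and noncystic females 57.4 to 93.7 (median 76.4). Of 8 Pkd1KO females 6 were above every double knockout female, and 4 were above every noncystic female.
The log2 fold change was 0.38 ± 0.072 against the double knockout (1.30-fold, adjusted p = 0.00417) and 0.29 ± 0.083 against noncystic females (adjusted p = 0.0637). Without both libraries at odds with their labels these were 0.35 and 0.29. The second passed the threshold with DESeq2 (adjusted p = 0.0296), with limma on log2(TPM + 1) (0.0312) and without noncystic female replicate 3 (0.0306), over a range of 0.0293 to 0.145.
Males had higher and more scattered values. Noncystic males had 73.1 to 122 CPM (median 111), Pkd1KO males 99.2 to 145 (median 122) and double knockout males 60.4 to 121 (median 101). Of 7 Pkd1KO males 5 were above every noncystic male and 5 above every double knockout male in CPM, and in TPM 3 and 2. The lowest noncystic male (replicate 3) and the 2 lowest double knockout males (replicates 8 and 6) were among those that stood apart. The male differences, 0.38 ± 0.12 against the double knockout (adjusted p = 0.0963) and 0.24 ± 0.11 against noncystic males (adjusted p = 0.205), had the sign seen in females and did not pass. Limma voom with quality weights gave 0.30 for the first (adjusted p = 0.0413, range 0.0413 to 0.172). Neither interaction with sex passed the threshold, with differences between sexes of 0.0071 ± 0.16 (adjusted p = 0.995) and -0.053 ± 0.16 (adjusted p = 0.975).

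**Figure D3:**
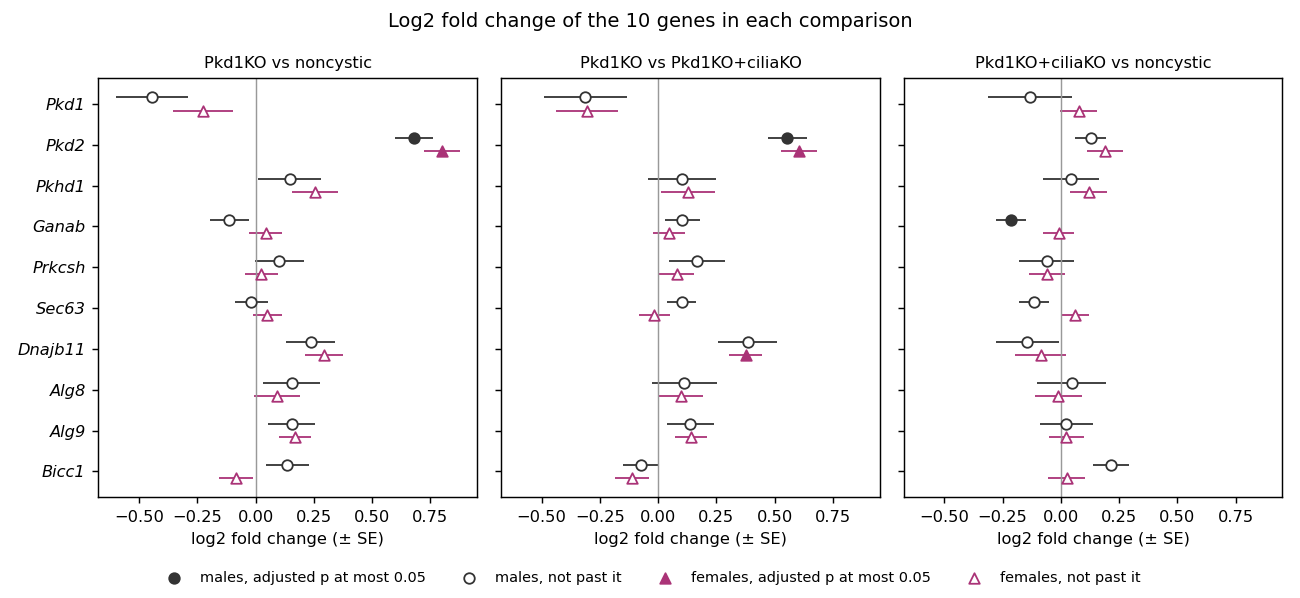
Log2 fold change (horizontal axis) of each of the 10 genes in the 3 comparisons of genotypes, in males (circles) and females (triangles), with filled symbols for an adjusted p of at most 0.05 and bars for the SE. Pkd2 stands at 0.55 to 0.80 in both comparisons of Pkd1KO mice, Dnajb11 is filled at 0.38 in females against Pkd1KO+ciliaKO, and Ganab at -0.21 in double knockout males.

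Ganab was the only gene of the 10 called between Pkd1KO+ciliaKO and noncystic mice, in males. Noncystic males had 174 to 223 CPM (median 186), Pkd1KO males 137 to 203 (median 186) and double knockout males 151 to 183 (median 170). The groups overlapped. The log2 fold change was -0.21 ± 0.065, or 0.862-fold, with an adjusted p of 0.0453. In the same comparison 4 of 8 proximal tubule markers were lower (5965 to 9316 against 7267 to 11714 CPM in sum) and 1 of 5 macrophage markers (47.4 to 93.2 against 67.2 to 94.4). Higher there were 2 of 4 podocyte markers (66.9 to 120.2 against 36.8 to 103 CPM), 2 of 3 mast cell markers tested (20.1 to 30.2 against 16.9 to 24.2), and 1 each of the tubule injury, principal cell and distal convoluted tubule markers. Their part in the result was not tested.
The adjusted p was 0.0110 to 0.273 over 27 alternatives. It was lost in 16 of them, with log2 fold changes of -0.23 to -0.12. They included limma on log2(TPM + 1), all 3 genotypes in 1 fit, leaving out any one of noncystic male replicates 1, 4, 6, 7 and 8, and leaving out any one of Pkd1KO+ciliaKO male replicates 1, 2, 5, 6, 7, 8 and 9. In females Ganab had 125 to 169 CPM in noncystic, 132 to 169 in Pkd1KO and 136 to 164 in double knockout mice. Its female values overlapped in all groups.

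Bicc1 had the reverse sign in double knockout males. Noncystic males had 315 to 446 CPM (median 370), Pkd1KO males 319 to 453 (median 417) and double knockout males 369 to 462 (median 426). Double knockout males exceeded noncystic males by 0.21 ± 0.078 (adjusted p = 0.0936), short of the threshold. The difference passed without noncystic male replicate 8 (0.26, adjusted p = 0.0357) and without the 4 males that stood apart (0.25, adjusted p = 0.0433). It also passed with limma voom with quality weights (0.30, adjusted p = 0.00386) and with limma on log2(TPM + 1) (0.31, adjusted p = 0.0247). The adjusted p ran from 0.00386 to 0.227 over the alternatives. Noncystic male replicate 8 was also the noncystic male with the lowest Kif3a.
Females had 389 to 505 CPM in noncystic (median 456), 385 to 500.4 in Pkd1KO (median 421) and 426 to 516 in double knockout mice (median 451), with overlap throughout.

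**Figure D4:**
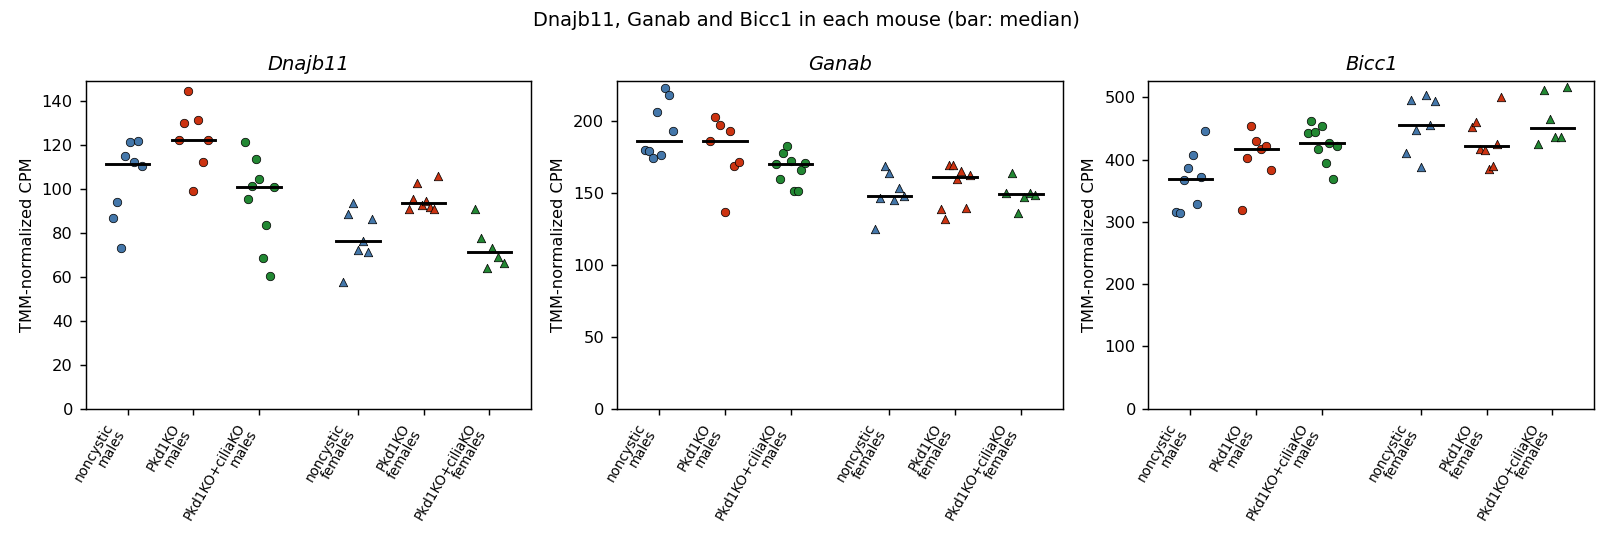
TMM-normalised CPM (vertical axes, from 0) of Dnajb11, Ganab and Bicc1 in every mouse, by genotype and sex (circles males, triangles females, bar median). In noncystic mice Dnajb11 and Ganab have higher medians in males (111 and 186) than in females (76.4 and 148), and Bicc1 is higher in females (456 against 370). For each gene the ranges of the genotypes of one sex overlap.

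The other 5 genes, Pkhd1, Prkcsh, Sec63, Alg8 and Alg9, were called in none of the 6 comparisons. Over these 30 values the log2 fold change ran from -0.12 to 0.25 with SEs of 0.061 to 0.15, and the lowest adjusted p by edgeR was 0.191. That was Pkhd1 in Pkd1KO against noncystic females (0.25 ± 0.099), with 276 to 479 CPM against 290 to 341. Alg9 ran from 0.023 to 0.17, Alg8 from -0.011 to 0.16, Prkcsh from -0.060 to 0.17 and Sec63 from -0.12 to 0.10. The largest of these is a difference of 1.19-fold, and a p that misses the threshold does not show that levels were equal. Alg9 shares 500 exon bases (12.9%) with 1110032A03Rik on the opposite strand, and whether their reads were kept apart is not known.

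Counted over all 10 genes, Pkd1KO against noncystic males had 1 gene called, Pkd2, which was higher, where 6.3% of all genes tested were called, 4.05% higher and 2.25% lower. In females the same comparison had 1 called, again Pkd2, where 3.34% were, 2.02% higher and 1.32% lower. Pkd1KO against Pkd1KO+ciliaKO males had 1 called, where 3.77% were, 1.99% higher and 1.78% lower. Females had 2 called, both higher, where 11.7% were, 7.05% higher and 4.65% lower. Pkd1KO+ciliaKO against noncystic males had 1 called, lower, where 8.89% were, 5.63% higher and 3.26% lower, and in females 0 of the 10 by edgeR, where 2.54% were, 0.67% higher and 1.87% lower. In that last comparison 1 of the 10 had an unadjusted p under 0.05, DESeq2 and voom called 0, and limma on either TPM scale called 1. No gene of the 10 was called in any sex interaction by edgeR, which called 0.0126%, 0.221% and 0.0316% of all genes for Pkd1KO against noncystic, Pkd1KO against Pkd1KO+ciliaKO and Pkd1KO+ciliaKO against noncystic. At an unadjusted p under 0.05 the interactions held 1, 0 and 1 of the 10, and DESeq2 and voom called 0 as well. 

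Between noncystic males and females 3 of the 10 were called, near the share of 27.4% over all genes, of which 14.1% were higher and 13.3% lower in males. Ganab was higher in males by 0.37 ± 0.072 (1.29-fold, adjusted p = 0.000127), and Dnajb11 by 0.42 ± 0.12 (1.34-fold, adjusted p = 0.00532). Bicc1 was lower in males by a log2 fold change of -0.32 ± 0.075 (0.804-fold, adjusted p = 0.00128). All 8 noncystic males were above the highest noncystic female in Ganab (174 to 223 against 125 to 169 CPM), and the sexes overlapped in the other two. The sexes did not overlap for 5.93% of all genes tested, and for 1 of the 10. The remaining 7 genes differed by -0.050 to 0.22, with a lowest adjusted p of 0.155. Without the 4 males that stood apart, 5 genes were called, adding Alg8 and Prkcsh.

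Across mice, with group means removed, the 6 ER genes varied together. Pearson's r of log2(CPM + 0.1) over the 45 mice was 0.43 to 0.87 for their 15 pairs (median 0.66), highest for Prkcsh with Dnajb11. Pkd1 had r of -0.50 to -0.030 with the 6, and its highest r was 0.64, with Pkhd1. Pkd1 and Pkhd1 have the longest counted exons of the 10 genes, at 17415 and 14310 bases against 2784 to 10169 for the others. For Pkd2, r with the other 9 genes was -0.069 to 0.39. Without the 6 libraries in doubt r was 0.74 for Prkcsh with Dnajb11, 0.54 for Pkd1 with Pkhd1 and -0.17 for Pkd1 with Dnajb11, against -0.50 with them. No r over other pairs of genes was set beside these, so the values do not show that shared variation is particular to the ER genes. These points share library preparation and total counts, and no p is given.

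**Figure D5:**
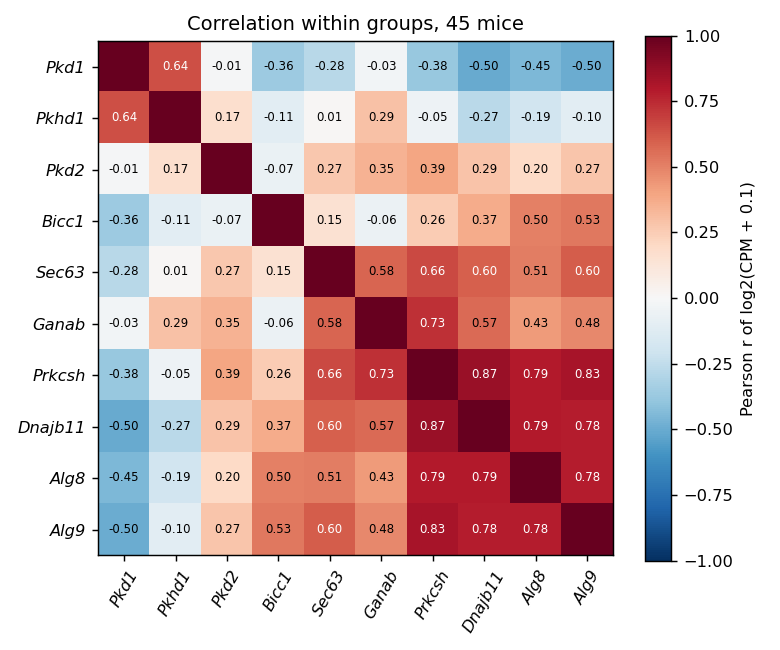
Pearson's r of log2(CPM + 0.1) between pairs of the 10 genes over the 45 mice, after the mean of each group was removed (colour scale -1 to 1). The 6 ER genes form a positive block from 0.43 to 0.87, Pkd1 pairs with Pkhd1 at 0.64, and Pkd2 stays between -0.069 and 0.39.

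The genes most like each ER gene, by the same measure centred on each sex, follow, with r over the 45 mice as a description. Prkcsh was most like Mboat7 (r = 0.92) and the translocon channel gene Sec61a1 (0.91), Dnajb11 most like the translocon partner Ssr2 (0.90), Ganab most like Os9 (0.88) and Emc1 (0.87), which act in ER quality control and membrane insertion, and Sec63 most like the lectin chaperone Canx (0.83). Alg8 had Alg9 among its 3 nearest (0.80) and was most like Mboat7 (0.84), and Alg9 was most like Mfsd6 (0.86). Pkd1 was most like Med12, Dock6 and Stard9 (0.86 to 0.85), Pkhd1 most like Plxna1 (0.78) and Bicc1 most like Jpt2 and Itgb6 (both 0.80). Without the 6 libraries in doubt, Mboat7 kept rank 1 for Prkcsh and Alg8, Mfsd6 for Alg9 and Jpt2 for Bicc1. Ssr2 (0.83), Canx (0.78), Med12 (0.82) and Plxna1 (0.77) then had rank 2, Os9 (0.86) rank 3, and Alg9 rank 5 for Alg8 (0.68).

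Of 77 genes in lists of the pathways around these 10, 76 were tested. Pkd1KO against noncystic had 2 higher and 3 lower in males, 6.58% of the 76 where 6.3% of all genes were called, and 2 higher in females, 2.63% where 3.34% were. The 3 lower in males were Tsc2, Lrp5 and Lman1. The genes called the same way in both sexes were Dnajc10, an ER disulfide reductase that works with BiP (0.42 ± 0.057 in males, adjusted p = 0.000536, and 0.44 ± 0.076 in females, adjusted p = 0.00309), and Anks3, a partner of Bicc1 (0.34 ± 0.069, adjusted p = 0.00575, and 0.39 ± 0.050, adjusted p = 0.000295). BiP itself (Hspa5) and its other listed partners were not called there, and this list of 10 had 1 called in each sex. Its median log2 fold change was -0.0090 for males, beside -0.0075 over all genes, and 0.12 for females, beside -0.00083.
Anks3 also rose against the double knockout in both sexes, by 0.40 ± 0.057 in males (adjusted p = 0.000506) and 0.49 ± 0.058 in females (adjusted p = 0.000252), and was called under every alternative run for all 4 comparisons. The other Bicc1 partner listed, Anks6, was called in none of the 6. Dnajc10 rose against the double knockout in males (0.32 ± 0.058, adjusted p = 0.00473), a call lost with the replicate block and with limma on either TPM scale, and had 0.21 ± 0.081 in females (adjusted p = 0.0983).
In females against the double knockout 13 pathway genes were higher and 1 lower, which is 18.4% of the 76 where 11.7% of all genes were called. Males had 2 higher and 2 lower, 5.26% where 3.77% were. The 13 included 5 of 12 subunits of the oligosaccharyltransferase, which attaches the sugar tree, where 7.05% of all genes were higher. The 2 with the smallest p were Tmem258 (0.26 ± 0.056, adjusted p = 0.00844) and Tusc3 (0.25 ± 0.058, adjusted p = 0.0120). The block took away both calls, and limma on either TPM scale that of Tusc3. The other 3 calls did not hold in many of 24 alternatives: Ost4 in 13, Ostc in 14 and Krtcap2 in 18. All 3 were lost with the block, with limma on either TPM scale and without any one of Pkd1KO female replicates 1, 2, 7 and 8 or Pkd1KO+ciliaKO female replicates 3 and 4. Of the 3, 1 or 2 were lost without Pkd1KO female replicates 3, 4 and 6 or Pkd1KO+ciliaKO female replicates 1, 2, 5 and 6, each left out alone. The list had a median of 0.15 against -0.011 over all genes, and in males edgeR called 0 of 12, with 4 at an unadjusted p under 0.05 and a median of 0.17 against 0.0084. The difference between sexes for this list was not tested. Of 11 glycan trimming genes 3 were higher and 1 lower in the same comparison, with Edem2, which takes misfolded glycoproteins out of the ER, at 0.34 ± 0.073 (adjusted p = 0.00790). Of 10 translocon genes 1 was higher, Ssr2 at 0.28 ± 0.055 (adjusted p = 0.00469). The calls of Edem2 and Ssr2 were lost with the replicate block and with no other alternative run. Lman1, on the list of glycan trimming genes, was called lower in Pkd1KO males against noncystic males and against Pkd1KO+ciliaKO males. These Lman1 calls were lost in 17 of 25 and 13 of 26 alternatives, and edgeR called Lman1 in neither comparison in females.
Uggt2, a paralogue of the sensor that returns glucose to misfolded glycoproteins, fell against the double knockout in both sexes, by 0.29 on the log2 scale in males (SE 0.073, adjusted p = 0.0332) and 0.29 in females (SE 0.086, adjusted p = 0.0410). The male call was lost with the block, with limma on either TPM scale, without the 4 males that stood apart, and without any one of Pkd1KO replicates 2, 3, 6 and 7 or Pkd1KO+ciliaKO replicates 1, 2, 3, 6, 7 and 8, and the female call with the block, without both libraries at odds with their labels, and without any one of Pkd1KO replicates 1, 2, 3, 5, 7 and 8 or Pkd1KO+ciliaKO replicates 2 to 6.
Of 16 genes that assemble the sugar tree alongside Alg8 and Alg9, 0 were called in Pkd1KO against noncystic mice of either sex by edgeR, with 2 in males and 1 in females at an unadjusted p under 0.05. Of 10 other cystic disease genes 2 were lower there in males, Tsc2 (above) and Lrp5, a Wnt co-receptor, at -0.29 ± 0.074 (adjusted p = 0.0268), and edgeR called 0 in females, with 3 at an unadjusted p under 0.05. Lrp5 was also lower in Pkd1KO+ciliaKO than in noncystic males (-0.32 ± 0.071, adjusted p = 0.00878). Both Lrp5 calls were lost with limma on either TPM scale, and the first also without any one of noncystic male replicates 1, 2 and 6 or Pkd1KO male replicates 1, 5 and 6. Cys1, of the same list, was called higher in Pkd1KO than in Pkd1KO+ciliaKO females. That call was lost with the replicate block and with limma on either TPM scale. Of 5 polycystin paralogues tested, 0 were called by edgeR between Pkd1KO and either other group in either sex, with 1 at an unadjusted p under 0.05 in each comparison. In Pkd1KO+ciliaKO against noncystic males 2 pathway genes were higher (Pkd1l3 and Alg10b) and 2 lower (Rpn1 and Lrp5), 5.26% of the 76 where 8.89% of all genes were called. In females 1 was lower (Ssr4), 1.32% where 2.54% were. The calls of Pkd1l3, Alg10b and Rpn1 were lost in 13, 3 and 13 of 27 alternatives, and that of Ssr4 in 11 of 23.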

How the data were processed

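TRAP RNA from kidneys of 45 mice was sequenced after ribosomal depletion (150 bp paired ends). Per the study's methods and processing notes, the authors used fastp 0.20.0 for trimming, STAR 2.7.9 for alignment (GRCm38.p6, GENCODE vM25) and featureCounts 2.0.0 for counting. Strand and multi-mapping settings are not given in the sources used here. The authors deposited 2 tables of raw counts per gene and 2 tables of TPM (counts scaled by exon length and library). The deposited TPM tables keep a gene where 20% or more of one sex's mice had 6 or more counts, and their protein-coding genes (15991 in males, 15968 in females, 15828 in both) were tested here.

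Counts were tested with edgeR 4.0.16 (R 4.3.3; TMM, glmQLFit, glmQLFTest, two-sided), 2 groups per fit within a sex, with Benjamini-Hochberg adjustment over all genes tested and a threshold of 0.05. The SE is the log2 fold change divided by the square root of F. Sex interactions and noncystic males against females came from 1 fit of all 45 mice. Alternatives used DESeq2 1.42.0, limma 3.58.1 (voom with quality weights, log2(TPM + 1), log2(TPM + 0.1)), DESeq2 size factors, no filter, a minimum of 10 counts, all genotypes in 1 fit, a replicate block and mice left out. The fits were tested on simulated counts. The 10 genes, the pathway and marker lists, the libraries left out and the rules were chosen with earlier results of these data known. Named genes were the 10, pathway genes called the same way in both sexes of a comparison or else the 2 with the smallest p per list, Kif3a, the 3 genes most like each of the 10, and genes overlapping them. Mice are separate animals, and no 2 libraries of the same group agreed within sampling noise (149 pairs). Libraries of different groups were not compared in this way. Sequences came from GENCODE vM21 transcripts and RefSeq, and coordinates of the 10 genes were the same in vM21 as in the files.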

Additional observations from a re-analysis of the deposited data

Results flagged for a closer look

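In each group of mice, the highest or the lowest value of each of the 10 genes and of Kif3a was compared with the rest by Dixon's ratio, the gap to the nearest mouse divided by the range of the group. Of 66 groups of values 5 held such a mouse, and chance gives about 1 in 20.

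Pkhd1 in Pkd1KO male replicate 3 had 533 CPM, where the other 6 Pkd1KO males had 272 to 373 (ratio 0.613, critical value 0.568). The same mouse had the highest Kif3a of its group at 29.2 CPM, where the others had 21.6 to 24.9 (ratio 0.575).

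The other 3 mice were far from their group in Kif3a. Noncystic male replicate 8 had 13.8 CPM against 20.4 to 25.5 in the other noncystic males. The library labelled noncystic female replicate 5 had 6.69 CPM against 23.2 to 25.3, and the library labelled Pkd1KO+ciliaKO female replicate 6 had 20.7 CPM against 6.56 to 8.47. In Pkd2 these female libraries had 293 and 265 CPM, both below all 8 Pkd1KO females, and in Bicc1 they had 505 and 516 CPM, the highest value of each group.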

How the results depend on the processing

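The rise of Pkd2 in Pkd1KO mice passed the threshold in all 4 comparisons under every alternative run, with log2 fold changes of 0.42 to 0.83, and that of Dnajb11 against Pkd1KO+ciliaKO females did so too, at 0.28 to 0.44. Of 244 recounts of members called, 216 kept the count within 1.5 times, though not always the same gene. In Pkd1KO+ciliaKO against noncystic males, limma on either TPM scale, and leaving out noncystic male replicate 8, called Bicc1 in place of Ganab. The counts that moved were these. Pkd1KO against noncystic males went from 1 to 2 with voom (Pkd1 added), and against Pkd1KO+ciliaKO males from 1 to 2 with voom (Dnajb11). Pkd1KO+ciliaKO against noncystic males went from 1 to 0 with all genotypes in 1 fit and with the replicate block, to 2 with voom and without the 4 males that stood apart (Bicc1), and to 0 to 1 when 1 mouse was left out. Pkd1KO against noncystic females, and the CDCA pattern in females, went from 1 to 2 with DESeq2 and with limma on either TPM scale (Dnajb11), and to 1 to 2 when 1 mouse was left out. Pkd1KO+ciliaKO against noncystic females went from 0 to 1 with limma on either TPM scale (Pkd2), and noncystic males against females from 3 to 5 without the 4 males. One value changed sign: Dnajb11 in Pkd1KO+ciliaKO against noncystic females, -0.087 (adjusted p = 0.679), was 0.046 and 0.047 with limma on log2(TPM + 1) and log2(TPM + 0.1). The cause was not tested. Of 823 recounts of the pathway genes and Kif3a named as called, 611 kept the call and 0 changed sign. These recounts, and the correlations without the 6 libraries in doubt or with group means removed, were added after seeing the data.

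Replicate numbers did not pair mice: r between deviations of same-numbered mice was -0.27 to 0.26. With the replicate block Ganab was not called in double knockout males (log2 fold change -0.22), so that count was 0, Pkd2 in Pkd1KO against noncystic males was 0.70, and no other count of members moved.

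Over all genes the number called moved by more than 1.5 times under some alternatives. Against noncystic mice Pkd1KO males had 1008 (1640 with DESeq2, and fewer by over 1.5 times with limma on log2(TPM + 1)) and females 533 (294 to 962). Against Pkd1KO+ciliaKO they had 603 (170 to 1389) and 1869 (612 to 2634), and the double knockout had 1422 (764 to 2803) against noncystic males and 405 (8 to 1357) against females, with 8 without Pkd1KO+ciliaKO female replicate 2. Each of the 10 genes had 2.13 CPM or more in every mouse.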
